A study of Rattus norvegicus with 4 samples.

Results

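Actin is the most abundant filament protein of most cells, and the genes described here encode the non-muscle actins and the proteins that nucleate, extend, bundle, cap, sever and pull on their filaments. They were chosen by name, with earlier results of these data known. The list held 49 symbols for non-muscle actins, tropomyosins, cross-linkers, non-muscle myosin, the Arp2/3 complex, formins and severing, capping and monomer-binding proteins. The deposited table held 48 of the 49, each on 1 row, out of 32623 genes. Pfn2 had no row under its symbol. A row described as profilin-2-like is given separately below and is not counted among the 48. RNA sequencing was done on cultured tendon stem/progenitor cells (TSPCs) of the rat, which resemble fibroblasts. Both groups were TSPCs: 2 control libraries were given DMSO, a solvent, and 2 libraries came from cells exposed to U0126, which blocks the MEK kinases upstream of ERK and is named an ERK inhibitor in the study's title. The labels used here give no strain, age, dose or exposure time. The labels call the replicates biological but do not say whether they came from separate animals or cultures, so p-values measure the spread between these libraries, which may be technical, and all n are 2 libraries per group.

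Filaments grow from actin monomers, which profilin hands to growing ends and thymosins hold in reserve. The Arp2/3 complex starts branches on existing filaments, formins and Ena/VASP proteins extend unbranched ones, and cofilin with its partner Wdr1 takes old filaments apart. Tropomyosins, alpha-actinins, filamins and non-muscle myosin II turn filaments into the contractile stress fibres that are prominent in cultured fibroblasts. Free actin monomers hold back the MRTF cofactors of the transcription factor SRF, and many actin cytoskeleton genes are known SRF targets. ERK acts on another set of SRF partners, the ternary complex factors.

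Most of the actin filament genes fell with U0126. Of the 48 genes, all of which were tested, 37 were lower, 0 were higher and 11 did not pass the threshold of 0.05 (edgeR's quasi-likelihood fit, p adjusted by Benjamini-Hochberg over 14023 genes). Of all genes tested, 11.5% were called lower and 8.41% higher. The profilin-2-like row, which is outside the 48, was called higher. At an unadjusted p under 0.05, 41 of the 48 were lower and 0 higher, and DESeq2 and limma-voom also called 0 higher, where they called 8.82% and 8.36% of all tested genes higher. The median log2 fold change of the 48 was -0.57, against 0.02 over all tested genes. Since the list was made with earlier results known, these contrasts describe it and are no independent test. Most changes were moderate: 8 of the 37 were at least 2-fold lower, a change found in 5.18% of all tested genes. The 48 rows took 4.13% and 4.22% of all control counts, against 2.52% and 2.78% of those in the U0126 libraries. The count of lower genes depended on the control libraries: it was 20 without control replicate 1 and 21 without control replicate 2, where 4.20% and 4.19% of all tested genes were called lower, the lone control being assumed to vary like the treated pair. The 2 genes called higher in any alternative were Myh10 and Rdx, without U0126 replicate 2, where 14.8% of tested genes were higher. In bulk RNA, fewer cells of a type and less RNA per cell cannot be told apart.

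**Figure D1:**
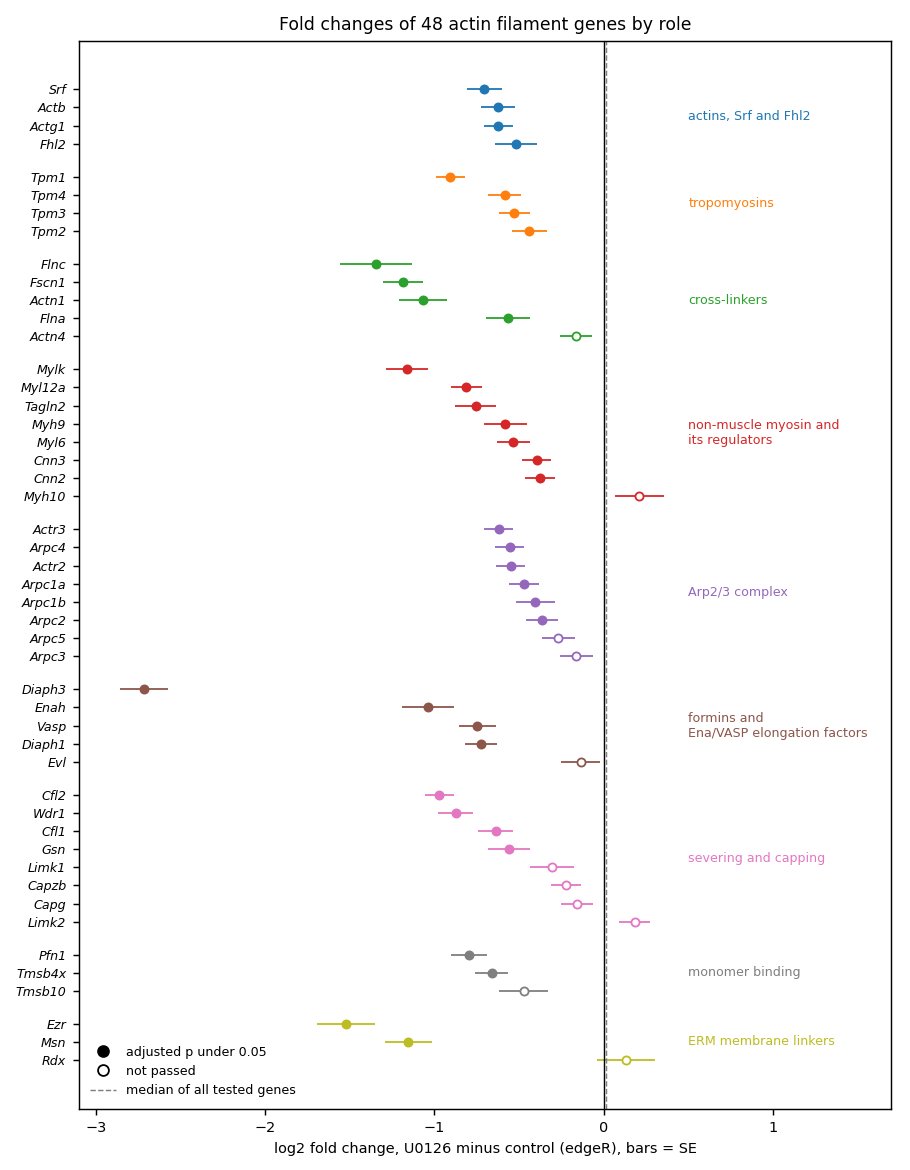
Log2 fold change (U0126 minus control, edgeR, x axis) of each of the 48 genes, grouped and coloured by role, with bars of 1 SE; filled points passed an adjusted p of 0.05. Filled points all lie left of 0, from -2.72 (Diaph3) to -0.37 (Arpc2), and the 3 genes right of 0 (Rdx, Limk2 and Myh10) are open points.

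The libraries separated for nearly all of them. In 44 of the 48 genes both U0126 libraries lay below both controls in CPM (counts scaled to the library total, with TMM factors between libraries), a pattern found in 31.0% of all tested genes. Limk2 alone had both U0126 libraries above both controls, a pattern found in 31.8% of tested genes. Myh10, Evl and Rdx overlapped between the groups. U0126 replicate 1 was the lower of the 2 treated libraries in 36 of the 48 genes and in 31 of the 37 called ones, against 49.1% of all tested genes. Total counts were 36888913 to 42785190 per library, and no gene of the 48 had fewer than 171 counts in any library.

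**Figure D2:**
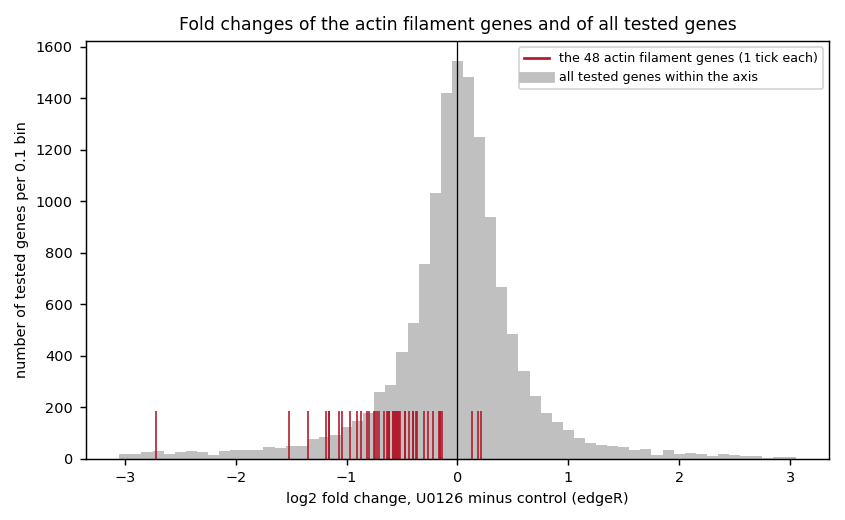
Histogram of the edgeR log2 fold change of all tested genes (x axis, bins of 0.1; y axis, genes per bin; values outside the axis are not drawn), with 1 red tick for each of the 48 actin filament genes. The histogram is centred close to 0 (median 0.02), while 45 of the 48 ticks lie left of 0, around a median of -0.57.

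The actins themselves were lower. Actb encodes beta-actin and was the second most abundant of the 48 per length (chromosome 12, 13715843 to 13718841, rn6). It was at 6317 and 6407 CPM in the controls and 3861 and 4397 CPM with U0126 (log2 fold change -0.62 ± 0.10 SE, edgeR adjusted p = 0.00595). The 2 groups did not overlap, and the fall was 1.54-fold. On the deposited TPM scale, which divides by gene length and can be compared between genes, Actb was at 8833 and 9296 TPM in the controls and 5242 and 6043 TPM with U0126. The row named Actg1, for gamma-actin, fell 1.54-fold, from 1653 and 1637 CPM in the controls to 1069.9 and 1069 CPM with U0126 (log2 fold change -0.62 ± 0.09 SE, edgeR adjusted p = 0.00327). Its replicates nearly coincided in both groups. The ratio of Actb TPM to that of the Actg1 row alone was 5.77 and 5.91 in the controls and 5.45 and 6.22 with U0126, so the groups overlapped in this ratio.

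The gamma-actin value rests on more than 1 row. The deposited Actg1 row lies on chromosome 3 (75643054 to 75644954, rn6), while RefSeq's GRCr8 promoter table places Actg1 on chromosome 10. A row of the deposited table on chromosome 10, LOC100361457, is described as a gamma 1 actin propeptide-like gene and held more counts, at 2289 and 2293 CPM in the controls and 1499 and 1572 CPM with U0126. This second row was found after its values were seen, and how the authors' counting divided reads between such near-identical rows is unknown. It fell 1.49-fold (log2 fold change -0.58 ± 0.09 SE, edgeR adjusted p = 0.00474). With both rows added together the fall was 1.51-fold (log2 fold change -0.60 ± 0.09 SE, edgeR adjusted p = 0.00411), so both rows and their sum were lower. The ratio of the 2 actins depends on the row: Actb TPM over the summed TPM of both gamma-actin rows was 1.73 and 1.75 in the controls and 1.62 and 1.78 with U0126, which also overlapped.

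Srf, which encodes serum response factor, the factor that binds CArG boxes in the promoters of many actin genes (chromosome 9, 16737642 to 16747225, rn6), was at 149 and 135 CPM in the controls and 81.5 and 92.4 CPM with U0126 (log2 fold change -0.71 ± 0.10 SE, edgeR adjusted p = 0.00436). Fhl2, a LIM-domain protein that is a known SRF target and partner, went from 261 ± 13.9 to 182 ± 29.2 CPM (log2 fold change -0.52 ± 0.12 SE, edgeR adjusted p = 0.0285). Both had both U0126 libraries below both controls. Without control replicate 1 the Srf call was lost (edgeR adjusted p = 0.0634), and the Fhl2 call was lost without either control (0.122 and 0.213).

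CArG boxes were looked for in RefSeq promoters of the GRCr8 build, each 250 bases before to 50 bases after a start site. The table held 50 promoters for 45 of the 49 symbols. Actb, Actn4, Arpc1a and Capg were not among them. A full CArG box, whose reverse complement is again a CArG box, stood in 5 of the 50 promoters (4 genes), against 1.64% of all 33469 promoters. The 4 genes were Srf, Actg1, Fhl2 (in 2 promoters) and Cnn2. All 4 were called lower, as were 37 of all 48 genes, so this count says nothing of the box. They are shown because these letters are the DNA site that SRF is known to bind. Each window runs from 120 to 41 bases before the start site, 5′ to 3′, with the CArG box in capitals.
Srf (chr9:21923956-21924035, plus strand): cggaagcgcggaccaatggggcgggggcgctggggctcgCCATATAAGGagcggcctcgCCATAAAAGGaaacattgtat
Actg1 (chr10:106120992-106121071, minus strand): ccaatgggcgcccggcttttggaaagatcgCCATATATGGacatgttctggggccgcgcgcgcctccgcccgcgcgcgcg
Fhl2, first promoter (chr9:52923367-52923446, minus strand): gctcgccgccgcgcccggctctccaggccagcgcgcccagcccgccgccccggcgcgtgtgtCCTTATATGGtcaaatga
Fhl2, second promoter (chr9:52954581-52954660, minus strand): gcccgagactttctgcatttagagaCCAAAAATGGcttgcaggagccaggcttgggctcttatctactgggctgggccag
Cnn2 (chr7:10370353-10370432, minus strand): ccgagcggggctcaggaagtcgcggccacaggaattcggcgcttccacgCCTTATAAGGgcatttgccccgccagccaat
Srf carried 2 boxes, at 81 to 72 and 61 to 52 bases before its start, and the others 1 per promoter, at between 95 and 49 bases before the start. The AP-1 site TGANTCA was in 2 of the 50 promoters, those of Myh9 and Mylk, against 7.33% of all promoters. The TEAD site GGAATG, on either strand, was in 11 of the 50 against 14.2% of all promoters. These matches describe the letters in the windows and show neither binding nor a cause.

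**Figure D3:**
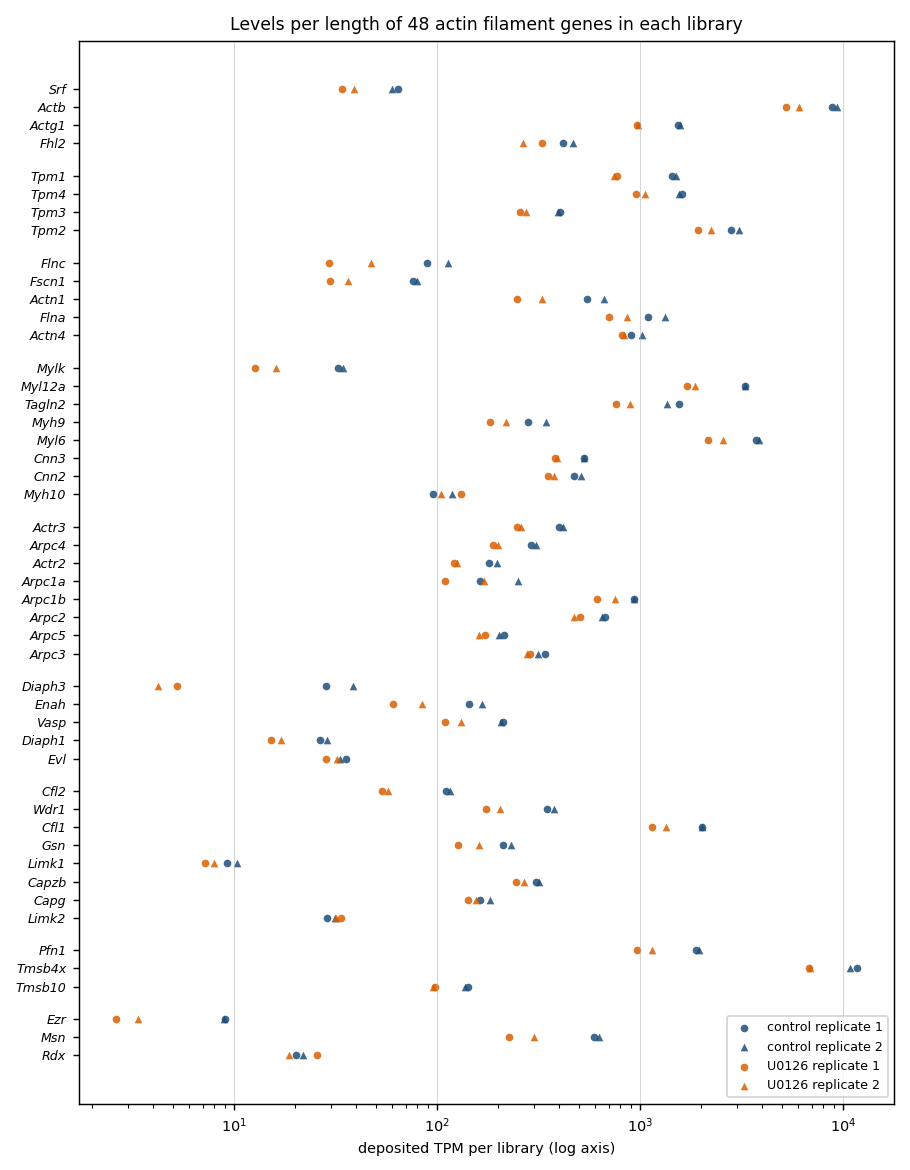
Deposited TPM (x axis, log scale) of each of the 48 genes in each of the 4 libraries, in the order of the plot of fold changes; blue marks are controls and orange marks U0126, with circles for replicate 1 and triangles for replicate 2. Levels span from 2.62 TPM (Ezr in U0126 replicate 1) to 11756 TPM (Tmsb4x in control replicate 1), and in most rows both orange marks lie left of both blue ones.

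All 4 tropomyosins, the rod-like proteins that lie along filaments and set which partners can bind, fell. Tpm1 (chromosome 8, 72814740 to 72842228, rn6) fell furthest, 1.87-fold, and was at 1391 and 1408 CPM in the controls and 764 and 730.1 CPM with U0126 (log2 fold change -0.91 ± 0.09 SE, edgeR adjusted p = 0.000799). Tpm4 was 1.5-fold lower, at 926 and 858 CPM in the controls and 569 and 621 CPM with U0126 (log2 fold change -0.59 ± 0.10 SE, edgeR adjusted p = 0.0066). Tpm3 fell 1.44-fold and Tpm2, the most abundant of the 4 per length, 1.36-fold. Tpm2 was at 1739.6 and 1844 CPM in the controls and 1235 and 1409.5 CPM with U0126 (log2 fold change -0.44 ± 0.10 SE, edgeR adjusted p = 0.025). None of the 4 overlapped between the groups. Of the TPM summed over the 4 genes, Tpm1 took 23% and 23.1% in the controls and 19.6% and 17.3% with U0126. Tpm2 took 44.8% and 47.2%, then 49.3% and 51.8%. These shares are given as values, with no test of the difference. Tpm1 passed in every alternative tried, while Tpm2 and Tpm3 missed the threshold without control replicate 1 (edgeR adjusted p = 0.109 and 0.103) and without control replicate 2 (0.188 and 0.0658), and Tpm4 without control replicate 1 (0.0789).

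Of the 5 cross-linkers 4 were lower (median log2 fold change -1.07). Flnc encodes filamin C, the filamin of muscle and of stressed cells (chromosome 4, 56711049 to 56738791, rn6), and was at 443 and 539.8 CPM in the controls and 149 and 238 CPM with U0126 (log2 fold change -1.34 ± 0.21 SE, edgeR adjusted p = 0.00588). Every U0126 library was under either control, but the pair with U0126 differed by 1.59-fold. Fscn1, fascin, bundles the parallel filaments of filopodia (chromosome 12, 13656554 to 13668515, rn6) and was at 63.9 and 64.6 CPM in the controls and 25.6 and 31 CPM with U0126. It was 2.27-fold lower (log2 fold change -1.18 ± 0.12 SE, edgeR adjusted p = 0.000866), with controls almost equal.

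The alpha-actinins, which tie antiparallel filaments together at stress fibres and adhesions, had unlike values. Actn1 (chromosome 6, 103375799 to 103470555, rn6) was at 1068 and 1243 CPM in the controls and 486 and 617 CPM with U0126, 2.10-fold lower (log2 fold change -1.07 ± 0.14 SE, edgeR adjusted p = 0.00271). Actn4 was at 1968 and 2151 CPM in the controls and 1829 and 1849 CPM with U0126 and did not pass (log2 fold change -0.16 ± 0.09 SE, edgeR adjusted p = 0.261). The ratio of Actn1 to Actn4 TPM was 0.612 and 0.650 in the controls and 0.304 and 0.397 with U0126. No test of that difference was made. Flna, filamin A, the most abundant filamin per length, fell 1.48-fold, from 5633 ± 644 to 3809 ± 500.0 CPM (log2 fold change -0.56 ± 0.13 SE, edgeR adjusted p = 0.0228), a call lost without control replicate 2 (edgeR adjusted p = 0.153). In Flna, Flnc, Actn1, Myh9 and Enah replicate 2 was above replicate 1 in both groups, by 1.12-fold to 1.22-fold in the controls and 1.19-fold to 1.59-fold with U0126. This order was not particular to them: Actb, Tpm2, Mylk and Msn, among others, had it too. Replicate 2 was the higher in 27 of the 48 genes in the controls and in 36 with U0126. A fit with the replicate number as a block kept all 37 calls.

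Non-muscle myosin II pulls on actin filaments, and its light chains are phosphorylated to switch it on. Of 8 genes for its chains and for proteins that regulate or coat contractile filaments, 7 fell. Mylk, myosin light chain kinase (chromosome 11, 69013050 to 69223158, rn6), fell most, at 146 and 149.8 CPM in the controls and 58.7 and 73.8 CPM with U0126, a 2.24-fold difference (log2 fold change -1.16 ± 0.12 SE, edgeR adjusted p = 0.00115). Myl12a, a regulatory light chain, was at 1804 and 1746 CPM in the controls and 972 and 1049 CPM with U0126 (log2 fold change -0.81 ± 0.09 SE, edgeR adjusted p = 0.00148). Both kept their groups apart by more than the spread within either group. Tagln2, transgelin 2, which binds filaments in non-muscle cells, was at 1147 and 962 CPM in the controls and 579 and 669 CPM with U0126 (log2 fold change -0.76 ± 0.12 SE, edgeR adjusted p = 0.00623), and was not called without control replicate 1 (edgeR adjusted p = 0.0595).

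Myl6, the essential light chain, was next to Tmsb4x and Actb in level per length among the rows under the 48 symbols. It was at 1484 and 1449.6 CPM in the controls and 950.4 and 1074 CPM with U0126 (log2 fold change -0.54 ± 0.10 SE, edgeR adjusted p = 0.01). Another row, RGD1559821, is described as similar to the same light chain and was found after its values were seen. It held 11.7 and 10.3 CPM in the controls and 7.46 and 7.93 CPM with U0126, and adding it to Myl6 left the fold at 1.45-fold. The 2 heavy chains had unlike values. Myh9, the heavy chain of myosin IIA, went from 1079 ± 129 to 721 ± 88.7 CPM (log2 fold change -0.58 ± 0.13 SE, edgeR adjusted p = 0.0198). Myh10, the heavy chain of myosin IIB, was at 410.3 and 492 CPM in the controls and 586 and 458 CPM with U0126 and overlapped between groups (log2 fold change 0.21 ± 0.14 SE, edgeR adjusted p = 0.359). The ratio of Myh9 to Myh10 TPM was 2.95 and 2.92 in the controls and 1.38 and 2.10 with U0126, with no test of the difference.

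The calponins Cnn2 and Cnn3, which bind actin and damp myosin, fell 1.30-fold and 1.32-fold. Cnn2 overlaps Palm on the other strand, a gene with 6556 counts in all against 27590 for Cnn2, and the labels do not say whether counting used strand. Leaving out control replicate 1 or 2 ended the calls of Myl6 (edgeR adjusted p = 0.0882 and 0.0755), Cnn2 (0.174 and 0.248) and Cnn3 (0.181 and 0.144), and leaving out control replicate 2 that of Myh9 (0.169). Myh10 passed, as higher, without U0126 replicate 2 (edgeR adjusted p = 0.0397), with 0.919 as the highest value of any alternative.

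The Arp2/3 complex joins the actin-related proteins Arp2 and Arp3 to a set of Arpc subunits, and 8 genes for it were measured. Of these, 6 fell and 2 did not pass, and all 8 had both U0126 libraries below both controls. The falls were small and close to each other, from 1.29-fold to 1.54-fold among the called genes. Actr3, one of the 2 actin-like subunits from which the branch starts, was at 477 and 482 CPM in the controls and 308 and 316 CPM with U0126 (log2 fold change -0.62 ± 0.08 SE, edgeR adjusted p = 0.00322). Actr2, the other, went from 175 ± 7.25 to 119 ± 2.23 CPM (log2 fold change -0.55 ± 0.09 SE, edgeR adjusted p = 0.0058). Arpc4, part of the core that holds the complex on the mother filament, fell 1.47-fold, from 235 ± 3.06 to 159.8 ± 5.67 CPM (log2 fold change -0.56 ± 0.09 SE, edgeR adjusted p = 0.00525).

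Arpc2, the other core subunit, fell 1.29-fold and Arpc1b, a propeller subunit with 937 and 938 TPM in the controls, 1.32-fold (edgeR adjusted p = 0.047). Arpc1a fell 1.39-fold, but its row spans only 389 bases. Its TPM differed between control libraries (162 and 250.2) where its CPM did not (117 and 116), so its level per length is uncertain. Arpc5 was at 214 and 196 CPM in the controls and 178 and 163 CPM with U0126 and Arpc3 at 174 and 154 CPM in the controls and 150.1 and 143 CPM with U0126 (edgeR adjusted p = 0.0993 and 0.29). Calls in this complex were lost mostly in fits with 1 control left out, as were calls over all genes, while the log2 fold changes of the 6 stayed negative. Without control replicate 1 those of Actr2 (0.0599), Arpc1a (0.127), Arpc1b (0.253), Arpc2 (0.297) and Arpc4 (0.0685) were lost, each value being edgeR's adjusted p. Without control replicate 2 all 6 were lost, with edgeR adjusted p from 0.0502 (Actr3) to 0.209 (Arpc1b). Leaving out U0126 replicate 1 ended the Arpc1b call too (edgeR adjusted p = 0.0709), where Arpc5 passed as lower (0.0334; highest of any alternative, 0.512).

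Formins and Ena/VASP proteins, which ride on growing ends, held the largest fall of the 48. Diaph3 encodes the formin mDia2, known for a part in cytokinesis (chromosome 15, 70039424 to 70399924, rn6), and was at 34.2 and 39.2 CPM in the controls and 5.93 and 5.22 CPM with U0126. It was 6.58-fold lower (log2 fold change -2.72 ± 0.14 SE, edgeR adjusted p = 0.000122). Proliferation genes moved with it: all 10 listed fell (100%, against 11.5% of all tested genes), from 4.23-fold (Aurkb) to 9.50-fold (Plk1). Among them were Ccnb1 (8.73-fold), Anln (8.25-fold) and Mki67 (8.86-fold). The 10 summed to 466 and 481 CPM in the controls and 79.7 and 53.3 CPM with U0126. The part of these genes in the Diaph3 result was not tested. Diaph1, the formin mDia1, was at 84.1 and 87.6 CPM in the controls and 49.3 and 54.6 CPM with U0126 (log2 fold change -0.73 ± 0.10 SE, edgeR adjusted p = 0.00282).

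Enah, which encodes Mena, (chromosome 13, 100300054 to 100414226, rn6) was 2.05-fold lower, at 161 and 179.9 CPM in the controls and 69.9 and 95.9 CPM with U0126 (log2 fold change -1.04 ± 0.15 SE, edgeR adjusted p = 0.00444). Vasp was at 249 and 236 CPM in the controls and 132 and 157 CPM with U0126 (log2 fold change -0.75 ± 0.11 SE, edgeR adjusted p = 0.0041), a call lost without control replicate 1 (edgeR adjusted p = 0.0531). Evl, also of this family, was at 32.1 and 29 CPM in the controls and 26.2 and 29.4 CPM with U0126 and overlapped between the groups (log2 fold change -0.14 ± 0.12 SE, edgeR adjusted p = 0.455). The ratio of Enah to Evl TPM was 4.07 and 5.03 in the controls and 2.15 and 2.63 with U0126, values that were not tested.

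Among 8 severing and capping genes, 4 fell. Cofilins cut and depolymerize filaments. Cfl2, the muscle-type cofilin (chromosome 6, 75759140 to 75763185, rn6), was at 183 and 184 CPM in the controls and 91 and 96.5 CPM with U0126 and 1.96-fold lower (log2 fold change -0.97 ± 0.09 SE, edgeR adjusted p = 0.000598). Cfl1, the non-muscle cofilin, was at 1266 and 1221 CPM in the controls and 738 and 859 CPM with U0126 (log2 fold change -0.64 ± 0.10 SE, edgeR adjusted p = 0.0066). Wdr1 speeds cofilin's action and was at 571 and 593 CPM in the controls and 294 and 340.2 CPM with U0126 (log2 fold change -0.87 ± 0.10 SE, edgeR adjusted p = 0.00174). All 3 had both U0126 libraries below both controls. Gsn, gelsolin, a calcium-dependent severing protein, went from 308 ± 12.6 to 209 ± 33.3 CPM (log2 fold change -0.56 ± 0.12 SE, edgeR adjusted p = 0.0201).

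Capg and Capzb, which cap filament ends, were at 142 ± 7.88 and 280.3 ± 1.47 CPM in the controls and 127 ± 7.02 and 240.2 ± 13.7 CPM with U0126. Neither passed (edgeR adjusted p = 0.286 and 0.13). The kinases that switch cofilin off did not pass either. Limk1 was at 17.1 and 18.6 CPM in the controls and 13.8 and 15.1 CPM with U0126 (log2 fold change -0.31 ± 0.13 SE, edgeR adjusted p = 0.146). Limk2 was at 59.1 and 62.3 CPM in the controls and 71.1 and 66.8 CPM with U0126 (log2 fold change 0.18 ± 0.09 SE, edgeR adjusted p = 0.21). The calls of Cfl1 and Gsn were lost without control replicate 1 (edgeR adjusted p = 0.064 and 0.106) and replicate 2 (0.0505 and 0.162), and Capzb passed as lower without U0126 replicate 2 (0.0319; highest of any alternative, 0.469).

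Monomer-binding proteins were among the most abundant of the set and 2 of the 3 measured fell. Tmsb4x, thymosin beta 4, the main store of free actin monomers in many cells, had the highest level per length of all 48 (11756 and 10776 TPM in the controls and 6795 and 6874 TPM with U0126). In CPM it was at 3950.2 and 3489 CPM in the controls and 2352 and 2350.2 CPM with U0126 (log2 fold change -0.66 ± 0.10 SE, edgeR adjusted p = 0.00437). Pfn1, profilin 1 (chromosome 10, 57273005 to 57275708, rn6), was at 876 and 865 CPM in the controls and 462 and 541 CPM with U0126, a 1.74-fold difference (log2 fold change -0.80 ± 0.10 SE, edgeR adjusted p = 0.00278). The groups did not overlap in either gene.

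For thymosin beta 10 the symbol leads to a minor row. The Tmsb10 row spans 135 bases on chromosome 7 and was at 10.8 and 10.1 CPM in the controls and 7.67 and 7.37 CPM with U0126 (log2 fold change -0.47 ± 0.15 SE, edgeR adjusted p = 0.0638). RefSeq's GRCr8 table places Tmsb10 on chromosome 4, where the deposited table has a row described as thymosin beta 10-like (LOC100364435). That row, found after its values were seen, was at 1281 and 1126 CPM in the controls and 1016 and 1105 CPM with U0126 and did not pass (log2 fold change -0.18 ± 0.10 SE, edgeR adjusted p = 0.267). The 2 rows together had a log2 fold change of -0.18 ± 0.10 SE (edgeR adjusted p = 0.261). The small row alone passed as lower with library totals (0.0455) and without U0126 replicate 1 (0.0449), both edgeR adjusted p. Pfn2 had no row under its own symbol, and RefSeq's GRCr8 table places it on chromosome 2. The deposited table has a row on chromosome 2 described as profilin-2-like (LOC100909840). That row was at 21.9 and 21.8 CPM in the controls and 33.4 and 30.1 CPM with U0126. It was 1.45-fold higher (log2 fold change 0.54 ± 0.11 SE, edgeR adjusted p = 0.0155) and missed the threshold when either control was left out (edgeR adjusted p = 0.156 and 0.168). It is not counted among the 48.

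The ERM proteins ezrin, radixin and moesin tie filaments to the plasma membrane, and the 3 genes had unlike values. Msn, moesin, the most abundant of them per length (chromosome X, 65226748 to 65295810, rn6), was at 1273 and 1301 CPM in the controls and 498 and 658 CPM with U0126, a 2.23-fold fall (log2 fold change -1.16 ± 0.14 SE, edgeR adjusted p = 0.0019). Ezr, ezrin, usually an epithelial protein (chromosome 1, 47287874 to 47331412, rn6), was low and fell 2.87-fold, at 15.1 and 14.3 CPM in the controls and 4.51 and 5.72 CPM with U0126 (log2 fold change -1.52 ± 0.17 SE, edgeR adjusted p = 0.0014). Rdx, radixin, was at 20.0 and 20.9 CPM in the controls and 26.1 and 18.7 CPM with U0126 and overlapped between groups (log2 fold change 0.13 ± 0.17 SE, edgeR adjusted p = 0.628). Its sign turned without U0126 replicate 1 (log2 fold change -0.13), and it passed as higher without U0126 replicate 2 (edgeR adjusted p = 0.0478; highest of any alternative, 0.864).

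**Figure D4:**
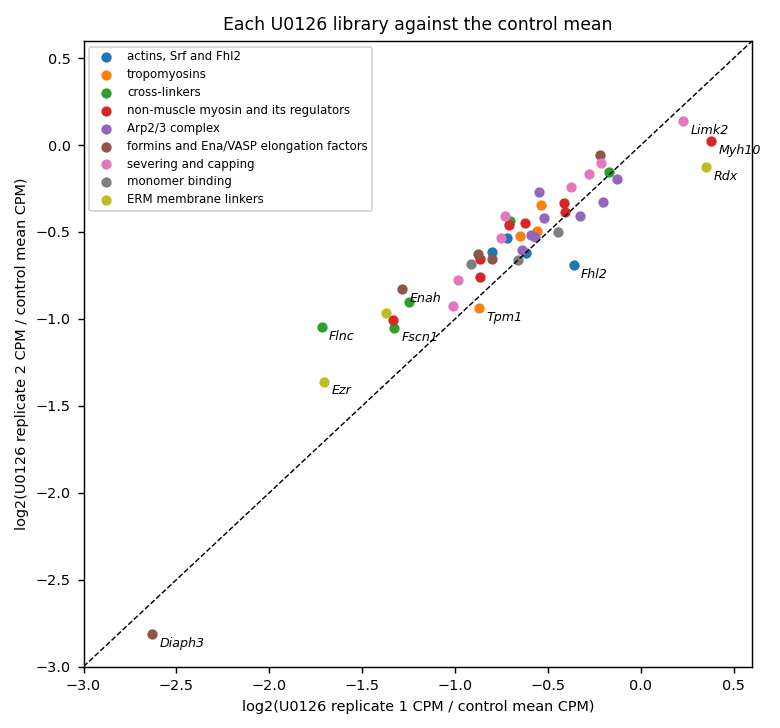
Each U0126 library against the control mean, as log2 of the CPM ratio for replicate 1 (x axis) and replicate 2 (y axis), 1 point per gene, coloured by role; the dashed line marks equal values. Of the 48 points 36 lie above the line, where replicate 1 is the lower, Flnc furthest among them, while Fhl2, Tpm1 and Diaph3 lie below it.

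The cofactor genes of SRF had unlike values. Myocd, which encodes myocardin, went from 52.7 ± 7.48 to 23 ± 3.29 CPM (log2 fold change -1.20 ± 0.15 SE, edgeR adjusted p = 0.00209). Mkl1, the gene of the cofactor MRTF-A, was at 109 and 111 CPM in the controls and 79.5 and 93.6 CPM with U0126 and did not pass (log2 fold change -0.35 ± 0.11 SE, edgeR adjusted p = 0.0601). It passed as lower under DESeq2 (adjusted p = 0.0343), with library totals (0.0377) and without U0126 replicate 2 (0.00299). Mkl2 was listed but had no row.

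A further list held activators of Arp2/3 (WASP and WAVE proteins and their partners), its inhibitor Arpin, coronins, debranching factors and the subunit genes Arpc5l and Actr3b. Of its 19 tested genes 1 fell (5.26%, against 11.5% of all tested genes) and 0 rose (median log2 fold change -0.10; 0 were higher at an unadjusted p under 0.05, by DESeq2 or by limma-voom). The one was Coro1c, a coronin, which went from 282 ± 7.33 to 183 ± 11.5 CPM (log2 fold change -0.62 ± 0.09 SE, edgeR adjusted p = 0.00423) and missed the threshold when either control was left out (edgeR adjusted p = 0.0502 and 0.0656). Without U0126 replicate 2, 5 of the list fell, where 17.3% of all tested genes were lower. Of 55 other actin-binding genes tested, 17 fell (30.9%, against 11.5% of all tested genes) and 3 rose (5.45%, against 8.41%), with a median log2 fold change of -0.28. Csrp1, a LIM protein of stress fibres, went from 797 ± 3.08 to 332 ± 41.6 CPM (log2 fold change -1.26 ± 0.11 SE, edgeR adjusted p = 0.000522). Inf2, a formin, fell 2.08-fold and Myo10, the filopodial myosin, 1.83-fold. The 3 risers were Fmnl2, Palld and Marcks, named after their values were seen. The lower genes of this list numbered 9 and 7 without control replicate 1 and 2, and the higher 0 and 1. Without U0126 replicate 2, 8 of the 55 were higher, where 14.8% of all tested genes were.

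Most smooth muscle contractile genes fell, as did most of the 48. Of 10 tested, 8 fell (80%, against 11.5% of all tested genes) and 0 rose (against 8.41%). The 10 summed to 16782 and 17171 CPM in the controls and 10062 and 10893 CPM with U0126, none being at 0. Cald1 and Synm, named after their values were seen, did not pass. Their log2 fold changes were 0.001 ± 0.13 SE and 0.54 ± 0.21 SE (edgeR adjusted p = 0.996 and 0.119). Acta2, smooth muscle actin, was at 7269 and 7478 CPM in the controls and 3837 and 4570.1 CPM with U0126 and Tagln at 5951 and 5949 CPM in the controls and 3078 and 3594 CPM with U0126. Cnn1 fell 2.89-fold, Lmod1 1.75-fold and Actg2 6.44-fold, or 9.67-fold without U0126 replicate 2. Their part in the falls of the 48 was not tested. Mitochondrially encoded genes took 3.48% and 2.98% of control counts and 5.64% and 4.82% of U0126 counts, which was likewise not tested.

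The label of the cells was checked against markers. Of 12 tendon and mesenchymal markers 11 were tested, with 5 higher (45.5%, against 8.41% of all tested genes) and 2 lower (18.2%, against 11.5%). The list summed to 37315 to 44085 CPM over the 4 libraries, with Col1a1 as the largest part. Mkx, a tendon factor named after its values were seen, was low. It was at 1.61 and 1.10 CPM in the controls and 2.45 and 3.45 CPM with U0126 and did not pass (edgeR adjusted p = 0.0515). Col1a1 was at 21073 and 23767 CPM in the controls and 20526 and 23943 CPM with U0126, Thy1 at 1575 and 1428 CPM in the controls and 902 and 905 CPM with U0126 and the tendon factor Scx at 12.2 and 11.8 CPM in the controls and 20.5 and 20.4 CPM with U0126. The matrix genes Fmod and Bgn rose 2.41-fold and 1.67-fold and Tnc fell 2.91-fold. Tnmd, a late tendon marker, was close to absent, at 2 and 5 counts in DMSO and 2 and 0 in U0126 libraries. The leukocyte, endothelial, skeletal muscle and epithelial lists were at low levels, unlike the smooth muscle genes given above. The leukocyte list summed to between 11.2 and 14.1 CPM, most of it Cd14, with Ptprc, Aif1, Cd3e and Cd79a at 0 counts. Adgre1, at 23 and 16 counts in DMSO and 2 and 0 in U0126 libraries, was called lower (edgeR adjusted p = 0.0315) but not with the replicate block (0.0546), without the low-count filter (0.0628), without U0126 replicate 2 (0.0674) or without control replicate 1 or 2 (0.227 and 0.134). No fold is given, since 1 treated library had 0 counts. The endothelial list summed to between 0.166 and 0.791 CPM, with Tek its one tested gene and Cdh5 and Tie1 at 0 counts. The skeletal muscle list summed to between 6.82 and 8.86 CPM, with Myod1 and Cdh15 lower, Tnnt3 higher and Pax7 and Ckm at 0 counts. Myod1 was at 84 and 82 counts in DMSO and 9 and 3 in U0126 libraries. Its log2 fold change was -3.61 ± 0.51 SE (edgeR adjusted p = 0.00363). Without U0126 replicate 1 it was -4.54, a value that rests on the treated library with 3 counts. Cdh15 lost its call without control replicate 1 (0.118) or 2 (0.0802), and Tnnt3 without those (0.161 and 0.162) or U0126 replicate 1 (0.0657), each an edgeR adjusted p. The epithelial list, at 2.62 to 3.56 CPM, came from Krt8, which did not pass, with Epcam, Cdh1, Krt5 and Krt14 at 0 counts. The part of these markers in the falls of the 48 was not tested.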

How the data were processed

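The deposited table of the whole series held, per the file headers, raw counts, TPM and FPKM per gene for 4 libraries. Per the submitters' processing notes the build was rn6. The aligner, counter and strand setting were not given in the sources used here. The members and lists were chosen with earlier results of these data known. Counts as deposited were tested with edgeR 4.0.16 (R 4.3.3): filterByExpr, TMM, a quasi-likelihood fit on group, 2-sided, Benjamini-Hochberg over 14023 genes, threshold 0.05. SE is the log2 fold change over the root of F. CPM are TMM-scaled. Levels of different genes were compared in the TPM the authors deposited, and the FPKM they deposited served as an alternative. Alternatives were DESeq2 1.42.0, limma 3.58.1 (voom), other scalings and filters, a replicate block, each library left out and, chosen after seeing the data, near-identical rows merged. Per-library values are given for members called at 1.5-fold or more, for the 5 most abundant per length and, after their values were seen, for some that did not pass. Of each list, up to 3 genes with the smallest adjusted p and some genes fixed by name are named. One list of actin regulators is not reported here as such. In simulated data only a small set of genes above a low CPM floor was changed, equally up and down. Among changed genes fitted with the right sign, the fit called 87% of 2-fold and 97% of 4-fold changes over 13827 genes. Of its 208 calls 11.5% were false. The real libraries gave 2792 calls, so these rates need not hold for them. Depth was 36888913 to 42785190 counts per library.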

Additional observations from a re-analysis of the deposited data

How the results depend on the processing

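The count of 37 lower members was the same with DESeq2's size factors in edgeR, DESeq2, limma-voom, no low-count filter, a stricter filter and merged copy rows, each with the same 37 genes, and 38 with library totals alone. Over these and the replicate block, 8.37% to 13.2% of all tested genes were lower. Leaving out 1 library gave 20 to 38 lower members and 0 to 2 higher. Over all genes, 2792 changed in the test as reported, 899 to 4644 with 1 library left out and 2371 to 2937 in the other alternatives. The median member log2 fold change was between -0.65 and -0.53 with 1 library left out. Of 98 genes tested in the 3 actin regulator lists, 24 were lower and 3 higher in the test as reported. The 3 actin regulator lists together had 9 to 40 lower and 0 to 9 higher genes with 1 library left out. In the same fits 4.19% to 17.3% of all tested genes were lower and 2.05% to 14.8% higher. The counts of the lists thus moved with those of the whole table. Of the 37 called members, 17 passed in every alternative and 20 lost the call in at least 1. With 1 library left out, the log2 fold change of Rdx ranged from -0.13 (without U0126 replicate 1, edgeR adjusted p = 0.511) to 0.34, and that of Col1a1 from -0.14 to 0.10 (without U0126 replicate 1, edgeR adjusted p = 0.636). Col1a1 was also above 0 without control replicate 2 (0.08, edgeR adjusted p = 0.812). The cause was not tested.

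The fit with the replicate block kept the same 37 lower members and called 2371 genes over the table. Over the whole table, same-numbered libraries did not deviate together (correlation -0.03 across 14023 genes, which are not independent replicates). The numbers were not taken to pair them. This correlation weighs low and high counts alike, so it cannot exclude a pairing that touched only some genes.

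With 2 libraries per group, small changes are the least certain, and lone libraries in the left-out fits are assumed to vary like the other group.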
